A study of Drosophila melanogaster with 12 samples.

Results

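The genes described here are the cuticle protein genes of *Drosophila melanogaster*, measured by RNA sequencing in adult heads after neuronal knockdown of *ND-75*, the fly gene for the complex I subunit NDUFS1. Members were chosen by symbol alone. They are the protein-coding genes whose names begin with *Cpr*, *Lcp* or *Edg* and a digit, or with *Ccp84*, *Twdl* or *Acp65A*, and *Pcp*. This rule found 102 genes among the 12710 protein-coding genes in the deposited tables. The *Cpr* family has 61 of them, *Twdl* 18, *Lcp* 11, *Ccp84* 7, *Edg* 3, and *Acp65A* and *Pcp* have 1 each.

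Heads were taken from flies that were 2 days old, and each genotype had 4 libraries, each from 1 pool of 20 heads, 10 of them male and 10 female. Controls had *nSybGal4* over w[1118], and the knockdowns had the same driver with a weak or a strong *ND-75* RNAi. According to the study's methods, all of these flies also carried *Tub-Gal80ts*, a temperature-sensitive repressor of Gal4, which the labels do not mention. The methods give KK108222 as the line for ND-75KDweak and HMS00853 as the line for ND-75KDstrong. The 2 RNAi lines come from different collections and genetic backgrounds, and the controls carried no RNAi transgene, so knockdown strength, RNAi line and background cannot be told apart here. *nSybGal4* drives expression in neurons, whereas cuticle is made by epidermal cells. The labels do not say whether the pools came from separate crosses, so a p-value here reflects only how far pools of heads differed from one another.

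Insect cuticle is a layered matrix of chitin fibres and structural proteins that epidermal cells secrete at their apical surface. It is laid down before and after each moult, and in the newly emerged adult the inner layers are still being added while the outer ones are tanned. Most cuticle proteins bind chitin through a shared stretch, the Rebers and Riddiford consensus, which marks the CPR family. Tweedle proteins form a separate family, known for mutants with a short, stout body. Genes of both families often lie side by side in clusters whose members are used at different stages and in different body regions.

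The annotation in the deposited tables gave 81 of the 102 proteins the insect cuticle domain PF00379 and all 18 Tweedle proteins the domain PF03103, while *Cpr49Ac*, *Cpr65Aw* and *Edg91* had neither. The arms 3L, 3R and 2R held 37, 26 and 24 of the genes, X held 8 and 2L held 7. In all, 73 lay in clusters, counted as neighbours less than 50 kb apart. For every one of the 102, the arm, start and end in the tables were those of the BDGP6.54 annotation (release 6 of the genome), which is the build of the coordinates given below.

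Library totals were 20072771 to 30321577 reads in control, 19309456 to 32441604 in ND-75KDweak and 22034203 to 34169998 in ND-75KDstrong. *ND-75* itself was at 710 to 1391 CPM in control (reads per 1000000 reads of the library, after scaling between libraries), 562 to 648 in ND-75KDweak and 459 to 650 in ND-75KDstrong. It was lower in every knockdown library than in every control library, but was not called in either comparison (edgeR quasi-likelihood test with Benjamini-Hochberg adjustment over all features, adjusted p = 0.116 and 0.117). Control replicate 3 and ND-75KDstrong replicate 4 stood apart from the other libraries, with the 16 neuron markers summing to 2618 and 2522 CPM against 3661 to 5060 in the other 10. Photoreceptor markers summed to 43340 to 57280 CPM in control, 48390 to 54680 CPM in ND-75KDweak and 37410 to 47070 CPM in ND-75KDstrong. In these sums every ND-75KDstrong library was below every ND-75KDweak library.

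Reads from the cuticle protein genes were few, and most of them came from a small part of the members. Between 69 and 90 of the 102 had at least 1 read in a library, and 53 had a read in every library. In all, 52 passed the filter on low counts in at least 1 comparison, which passes a gene through the group where it is high. The other 50 were never tested. They comprised 25 *Cpr* genes, 13 Tweedle genes, 8 *Lcp* genes, 2 *Ccp84* genes and 2 *Edg* genes, and none of them had a mean over the 12 libraries above 0.525 CPM. That value belonged to *Cpr5C*, which was listed at 3.62 and 1.74 CPM in ND-75KDstrong replicates 1 and 4 and at no more than 0.326 CPM in the other 10 libraries.

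Per unit of length, on the FPKM scale of the authors, *Cpr100A* had the highest level. The mean was 296 ± 42.4 FPKM in control, 92.2 ± 68.0 in ND-75KDweak and 459 ± 185 in ND-75KDstrong (SD, n = 4). *Cpr72Ec*, *Cpr97Eb*, *Cpr49Ag* and *Cpr67B* followed, with means over the 12 libraries of 141, 122, 117 and 113 FPKM, so the order among these 4 rests on small differences. *Cpr72Ec* is known as a protein of the corneal lens. These 5 genes gave 57.4% of all reads from cuticle protein genes, and *Cpr100A* alone gave 24.5%.

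Summed over all 102 genes, cuticle protein reads were fewer in ND-75KDweak heads than in either of the other genotypes. The sums were 1439, 1825, 2001 and 1864 CPM in control replicates 1 to 4, and 691, 1187, 748 and 725 CPM in the ND-75KDweak replicates. In ND-75KDstrong they were 2191, 2764, 2300.0 and 1559 CPM. Every ND-75KDweak library was below every control and every ND-75KDstrong library, and the ranges of control and ND-75KDstrong overlapped. ND-75KDweak replicate 2 lay nearest to control and ND-75KDstrong replicate 4 was the lowest of its group. Without *Cpr100A* the sums ran from 1094 to 1614 CPM in control, from 613 to 928 CPM in ND-75KDweak and from 1205 to 1816 CPM in ND-75KDstrong. These sums are a description and have no test. In samples of whole heads, fewer epidermal cells and less RNA per cell cannot be told apart.

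**Figure D1:**
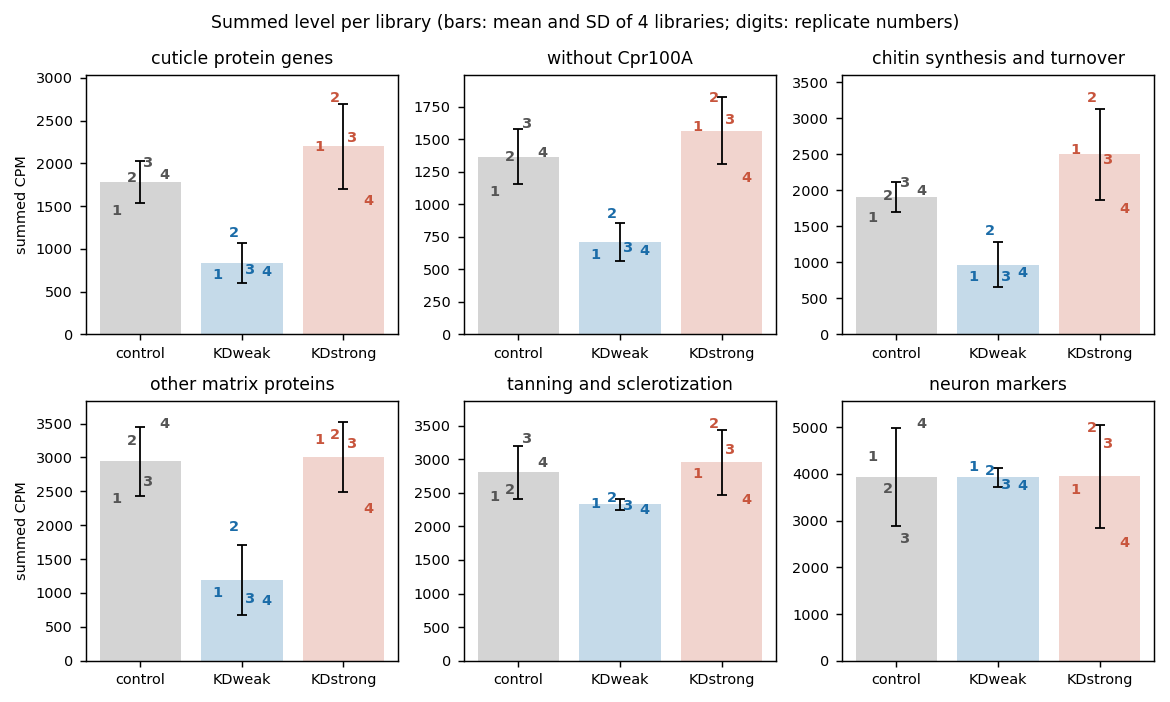
Summed CPM per library in the 3 genotypes for the 102 cuticle protein genes, for the same genes without *Cpr100A*, and for 4 other lists; bars are the mean and SD of 4 libraries and digits are replicate numbers. Cuticle protein sums in ND-75KDweak lay between 691 and 1187 CPM, all below the lowest control (1439 CPM), while the neuron marker sums of the genotypes overlapped.

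The comparison of ND-75KDweak with control asks which genes differ in heads of the line that the study names weak. Of the 49 cuticle protein genes tested, 21 were lower in ND-75KDweak, 2 were higher and 26 were not called. Over all features tested, 3.98% were called lower and 2.56% higher. Among the cuticle protein genes the share called lower was 42.9%. The median log2 fold change of the 49 was -0.82, against -0.01 over all features. It was -0.46 without control replicate 2, and -0.20 with DESeq2, where the median covered 98 members and so more of low count. In 21 genes all ND-75KDweak libraries were below all controls, as in 9.35% of all features, and in 3 all were above, as in 6.06%. By family, 14 of 33 *Cpr* genes, 4 of 5 *Ccp84* genes, 1 of 3 *Lcp* genes, 1 of 5 Tweedle genes and *Acp65Aa* were lower, and *Edg91* and *Pcp* were not called. *Cpr50Ca*, a gene of few reads, and *Ccp84Ag* were higher.

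The comparison of ND-75KDstrong with control asks the same of the line named strong, and shares its control libraries with the first. Of 49 genes tested, *Cpr49Af* and *Lcp65Ac* were lower, *Ccp84Ag* was higher and 46 were not called. Over all features tested, 0.589% were called lower and 1.78% higher. In this comparison the share of cuticle protein genes called higher (2.04%) was near that of all features. The median log2 fold change was 0.21, against -0.01 over all features. The libraries of the 2 genotypes did not overlap in 2 genes that were higher and 3 that were lower, against 4.91% and 3.7% of all features. DESeq2 tested 72 members on the same libraries and called 5 higher and 3 lower, where it called 2.82% of all features higher and 1.02% lower. Without control replicate 3 and ND-75KDstrong replicate 4, edgeR called 10 of 50 higher and 2 lower, against 3.84% and 1.18% of all features. With ND-75KDstrong replicate 4 alone left out it called 5 of 51 higher, against 2.21% of all features. That library had the lowest CPM of its group in 30 of the 52 tested members, so leaving it out favours calls of higher members. The larger counts without it are therefore no separate support. Among the 10 were *Cpr47Ea*, *Cpr49Ac*, *Cpr50Cb*, *Cpr64Aa* and *Cpr97Eb*, named here after their values were seen.

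The 2 knockdowns differ in line and, by the study's names, in strength, and share libraries with both comparisons above. Between them, 25 of 52 genes tested were higher in ND-75KDstrong and 3 were lower. Over all features tested, 8.18% were called higher and 3.09% lower. Among the cuticle protein genes the share called higher was 48.1%, and the median log2 fold change was 0.75 against 0.02 over all features. All ND-75KDstrong libraries were above all ND-75KDweak libraries in 27 genes, as in 11.6% of all features, and below them in 3, as in 6.33%. The genes called higher were 17 *Cpr* genes, 4 *Ccp84* genes, *Lcp65Ac*, *TwdlT*, *Acp65Aa* and *Edg91*. The genes called lower were *Cpr50Ca*, *Cpr92A* and *TwdlG*.

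**Figure D2:**
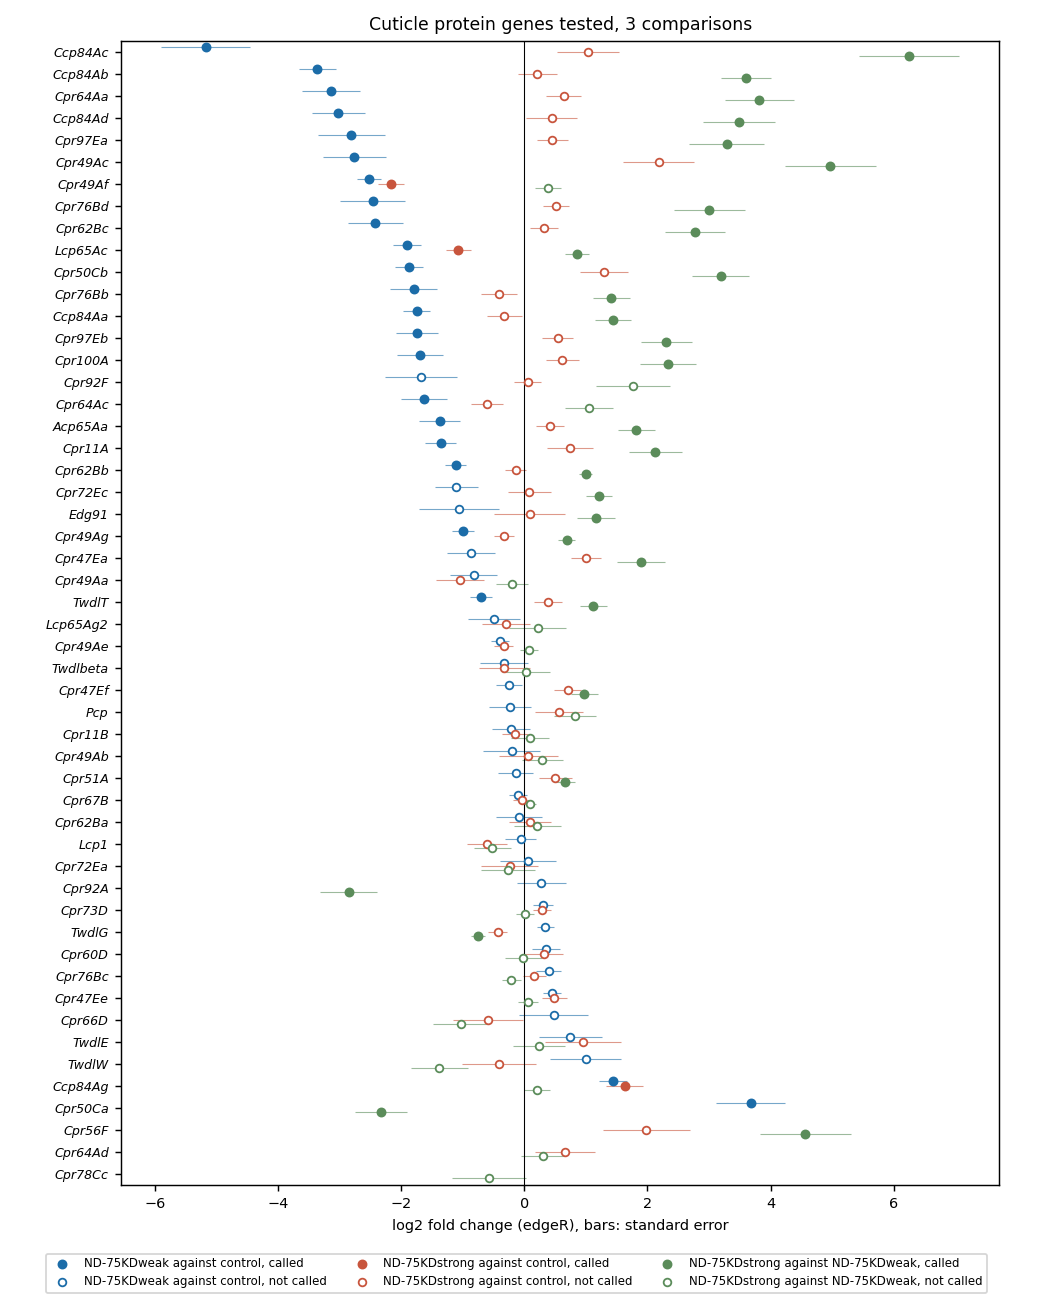
Log2 fold change with its standard error for the 52 cuticle protein genes tested in any comparison, ordered by ND-75KDweak against control; filled points were called at an adjusted p under 0.05 and open points were not. In ND-75KDweak against control 21 filled points lie below 0 and 2 above, and in ND-75KDstrong against ND-75KDweak 25 lie above 0 and 3 below.

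*Cpr100A*, a CPR family gene that stands alone on 3R, had the most reads. In CPM it was at 344, 459, 387 and 470.1 in control, 77.7, 259, 82.1 and 81.0 in ND-75KDweak, and 598, 948, 650.5 and 353 in ND-75KDstrong. ND-75KDweak replicate 2 lay between its group and the controls, and ND-75KDstrong replicate 4 lay within the control range. The log2 fold change was -1.70 ± 0.38 (SE) in ND-75KDweak against control (adjusted p = 0.0203, edgeR) and 0.61 ± 0.27 in ND-75KDstrong against control (adjusted p = 0.404). Between the knockdowns it was 2.34 ± 0.45 (adjusted p = 0.00812). The first of these calls was lost when any of 5 single libraries was left out.

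*Cpr97Ea*, *Cpr97Eb* and the Tweedle gene *TwdlT* form a cluster of 3 on 3R (27049220 to 27091130), and all 3 were lower in ND-75KDweak. *Cpr97Eb* was at 114, 148, 161 and 141 CPM in control, 24.1, 80.8, 30.3 and 30.3 CPM in ND-75KDweak, and 202, 301, 196 and 124 CPM in ND-75KDstrong. Again replicate 2 was the highest ND-75KDweak library and below every control. The log2 fold change was -1.74 ± 0.34 for *Cpr97Eb*, -2.81 ± 0.55 for *Cpr97Ea* and -0.70 ± 0.17 for *TwdlT* (adjusted p = 0.0117, 0.0112 and 0.0362, edgeR). The call for *TwdlT* was lost with all 12 libraries in 1 fit and without ND-75KDweak replicate 1, 3 or 4 or control replicate 2 or 4. None of the 3 was called in ND-75KDstrong against control, where the values were 0.54, 0.46 and 0.39.

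The genes at 84A on 3R (6684445 to 6704903) are 7 *Ccp84A* genes and *Edg84A*, a gene known to depend on ecdysone. The 5 *Ccp84* genes tested had a median log2 fold change of -3.02 in ND-75KDweak, the lowest of the 7 families, and 1 of them was higher. *Ccp84Ab* was at 33.5, 45.5, 32.3 and 26.1 CPM in control, 3.05, 5.48, 2.79 and 1.95 CPM in ND-75KDweak, and 35.5, 54.3, 51.8 and 17.7 CPM in ND-75KDstrong. ND-75KDweak did not overlap with either genotype, whereas control and ND-75KDstrong did overlap. *Ccp84Ab* had a log2 fold change of -3.36 ± 0.30 in ND-75KDweak (adjusted p = 1.2e-04, edgeR) and 3.60 ± 0.41 between the knockdowns (adjusted p = 4.9e-04). At 0.21 ± 0.31 it was not called in ND-75KDstrong against control (adjusted p = 0.888). *Ccp84Aa* (-1.75 ± 0.22) and *Ccp84Ad* (-3.02 ± 0.43) were also lower in ND-75KDweak, and both were higher in ND-75KDstrong than in ND-75KDweak.

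*Ccp84Ac* was a gene of few reads. Its level was 1.12, 0.930, 1.19 and 0.376 CPM in control and 1.86, 2.10, 2.85 and 0.474 CPM in ND-75KDstrong. The ND-75KDweak libraries together held 2 reads, against 88 in control and 229 in ND-75KDstrong. From these pooled reads the ratio of ND-75KDweak to control was 0.0228 (exact 95% interval 0.00272 to 0.0848, covering counting error only). The fitted log2 fold change (-5.17 ± 0.72, adjusted p = 0.0018, edgeR) depends on how near-zero counts are treated and is no bound. Without control replicate 3 the gene fell below the count filter and was not tested.

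*Ccp84Ag*, at the other side of the same cluster, was the one member called higher in both knockdowns. It was at 10.5, 12.1, 6.74 and 5.64 CPM in control, 22.7, 22.4, 26.0 and 22.0 CPM in ND-75KDweak, and 34.5, 34.9, 21.1 and 17.7 CPM in ND-75KDstrong. All 8 knockdown libraries exceeded all 4 controls, and the knockdowns overlapped. Its log2 fold change was 1.44 ± 0.23 in ND-75KDweak (adjusted p = 0.00348, edgeR) and 1.63 ± 0.30 in ND-75KDstrong (adjusted p = 0.0146). Between the knockdowns it was 0.21 ± 0.21 (adjusted p = 0.609). Without ND-75KDstrong replicate 1 the call in ND-75KDstrong was lost. The remaining genes of the cluster, *Ccp84Ae*, *Ccp84Af* and *Edg84A*, were too low to test.

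**Figure D3:**
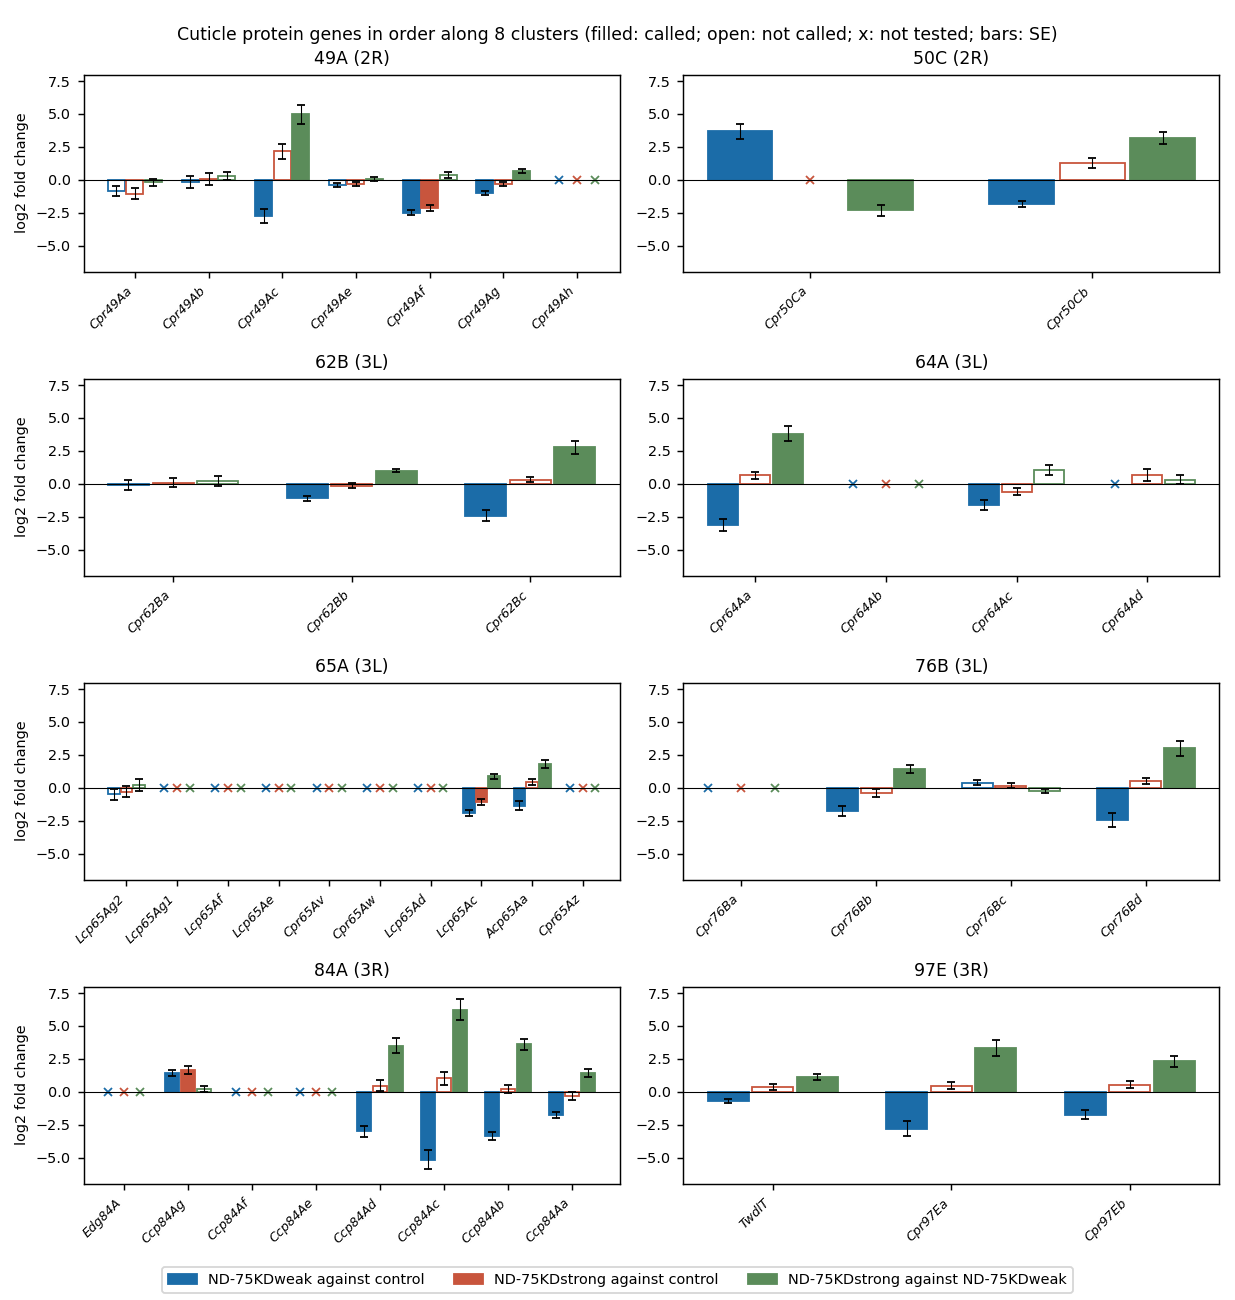
Log2 fold change (y axis) with its standard error for the cuticle protein genes of 8 clusters, in their order along the chromosome; filled bars were called, open bars were not, and crosses mark genes not tested. At 84A *Ccp84Ag* was above 0 in both knockdowns against control while *Ccp84Aa* to *Ccp84Ad* were below 0 in ND-75KDweak, and at 50C *Cpr50Ca* and *Cpr50Cb* had opposite signs in ND-75KDweak against control.

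The neighbours *Cpr50Ca* and *Cpr50Cb* on 2R (13769915 to 13805231) differed in opposite directions. *Cpr50Cb* was at 8.16, 8.61, 7.61 and 6.58 CPM in control, 1.55, 2.77, 2.44 and 1.57 CPM in ND-75KDweak, and 18.1, 32.8, 18.8 and 6.21 CPM in ND-75KDstrong. Only ND-75KDstrong replicate 4 kept its group from lying wholly above the controls. Its log2 fold change was -1.87 ± 0.23 in ND-75KDweak (adjusted p = 6.7e-04, edgeR) and 1.29 ± 0.39 in ND-75KDstrong (adjusted p = 0.155). *Cpr50Ca* had 4 reads in the control libraries together, and its CPM was 0.638, 0.512, 0.563 and 0.487 in the ND-75KDweak libraries and 0.0429 to 0.19 in ND-75KDstrong. *Cpr50Ca* was called higher in ND-75KDweak than in control (3.68 ± 0.56, adjusted p = 0.00282) and lower in ND-75KDstrong than in ND-75KDweak (-2.33 ± 0.42, adjusted p = 0.00539). It passed the count filter only through ND-75KDweak, where it is high, with 56 reads against 13 in ND-75KDstrong. Its fold changes depend on how near-zero counts are treated and are no bound. It was not tested in ND-75KDstrong against control. The span of *Cpr50Ca* overlaps that of *S-Lap7* on the other strand, which was at a mean of 0.128 CPM. The library kit does not keep strand and overlap of exons was not checked, so part of the reads may belong to *S-Lap7*.

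The 7 neighbours at 49A on 2R (12376626 to 12415170) varied among themselves. *Cpr49Af* was at 6.75, 7.89, 9.31 and 6.39 CPM in control, 1.14, 1.33, 1.35 and 1.36 CPM in ND-75KDweak, and 2.18, 1.50, 1.38 and 1.74 CPM in ND-75KDstrong. Every knockdown library was at less than every control. Against control the log2 fold change was -2.52 ± 0.19 in ND-75KDweak (adjusted p = 5.4e-05, edgeR) and -2.16 ± 0.21 in ND-75KDstrong (adjusted p = 2.3e-04), with 0.38 ± 0.22 between the knockdowns (adjusted p = 0.324). It had the smallest p of all cuticle protein genes in both comparisons with control.

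*Cpr49Ac*, which lacks the PF00379 annotation, was lower in ND-75KDweak, from a low level to begin with. It was at 0.389, 0.809, 0.436 and 0.376 CPM in control, 0.0455, 0.102, 0.0626 and 0.0696 CPM in ND-75KDweak, and 1.41, 4.72, 2.44 and 0.632 CPM in ND-75KDstrong. Its log2 fold change was -2.76 ± 0.51 in ND-75KDweak (adjusted p = 0.00833, edgeR), 2.18 ± 0.57 in ND-75KDstrong (adjusted p = 0.0932) and 4.97 ± 0.74 between the knockdowns (adjusted p = 0.00185). Without ND-75KDweak replicate 3 or 4 or control replicate 3 or 4, *Cpr49Ac* fell below the count filter in the first of these comparisons and was not tested. The ND-75KDweak libraries together held 7 reads of *Cpr49Ac*, against 51 in control and 264 in ND-75KDstrong. It passed the filter only through the group where it is high. Its fold changes against ND-75KDweak depend on how near-zero counts are treated and are no bound. *Cpr49Ag*, an abundant member, was at 82.1, 98.7, 130.1 and 92.5 CPM in control, 40.7, 59.6, 53.1 and 45.6 CPM in ND-75KDweak, and 82.3, 86.9, 69.2 and 84.2 CPM in ND-75KDstrong. ND-75KDweak lay below both other genotypes without overlap (-0.99 ± 0.18 against control, adjusted p = 0.00644). *Cpr49Aa*, *Cpr49Ab* and *Cpr49Ae* were not called in any comparison.

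*Lcp65Ac*, a larval cuticle protein gene by name, was the one member called in all 3 comparisons. It was at 8.31, 9.42, 10.2 and 5.76 CPM in control, 2.64, 1.79, 2.41 and 1.95 CPM in ND-75KDweak, and 4.03, 4.64, 4.04 and 3.36 CPM in ND-75KDstrong. The genotypes formed 3 separate ranges, with control highest and ND-75KDweak lowest. Its log2 fold change was -1.91 ± 0.22 in ND-75KDweak (adjusted p = 6.2e-04, edgeR), -1.07 ± 0.21 in ND-75KDstrong (adjusted p = 0.0189) and 0.86 ± 0.19 between the knockdowns (adjusted p = 0.016). The second of these calls was lost without control replicate 1 or 2 or ND-75KDstrong replicate 1 or 3, and the third without any of 3 single libraries. Its neighbour *Acp65Aa*, an adult cuticle protein gene, was lower in ND-75KDweak (-1.38 ± 0.34, adjusted p = 0.0339), a call lost without ND-75KDweak replicate 1, 3 or 4 or control replicate 2 or 3. Of the 10 genes of this 65A cluster on 3L, 3 were tested. *Lcp65Ag2* has a near-identical copy beside it (*Lcp65Ag1*), so its reads are uncertain, and it was not called.

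At 64A on 3L (4207838 to 4216414), *Cpr64Aa* was at 9.08, 11.0, 11.1 and 11.8 CPM in control, 0.820, 3.02, 0.751 and 0.418 CPM in ND-75KDweak, and 20.3, 22.2, 17.3 and 7.47 CPM in ND-75KDstrong. ND-75KDweak was below all other libraries, and ND-75KDstrong was above control but for replicate 4. *Cpr64Aa* had a log2 fold change of -3.14 ± 0.47 in ND-75KDweak (adjusted p = 0.00251, edgeR), 0.64 ± 0.29 in ND-75KDstrong (adjusted p = 0.427) and 3.81 ± 0.56 between the knockdowns (adjusted p = 0.00179). *Cpr64Ac* was also lower in ND-75KDweak (-1.63 ± 0.38, adjusted p = 0.0265), but not without ND-75KDweak replicate 4 or control replicate 2 or 4. *CG43367* overlaps the 64A genes on the strand opposite to *Cpr64Aa* and *Cpr64Ac* with a mean of 82.9 CPM, so part of their reads may belong to it.

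At 62B on 3L (1824129 to 1842084), *Cpr62Bb* and *Cpr62Bc* were lower in ND-75KDweak and *Cpr62Ba* was not called. *Cpr62Bb* was at 46.9, 65.8, 81.0 and 61.6 CPM in control, 26.0, 34.0, 28.3 and 27.6 CPM in ND-75KDweak, and 63.3, 53.6, 56.3 and 59.6 CPM in ND-75KDstrong. The replicates of each knockdown lay close together and the knockdowns did not overlap. *Cpr62Bb* had a log2 fold change of -1.11 ± 0.17 in ND-75KDweak (adjusted p = 0.00314, edgeR), -0.14 ± 0.17 in ND-75KDstrong (adjusted p = 0.849) and 1.00 ± 0.11 between the knockdowns (adjusted p = 4.4e-04). *Cpr62Bc* (-2.42 ± 0.44) and, in the 76B cluster, *Cpr76Bd* (-2.46 ± 0.53) and *Cpr76Bb* (-1.80 ± 0.38) were lower in ND-75KDweak as well (adjusted p = 0.00791, 0.0185 and 0.0167). The calls for *Cpr76Bd* and *Cpr76Bb* were lost without ND-75KDweak replicate 1, 3 or 4. *Cpr11A*, on X, was lower by a log2 fold change of -1.36 ± 0.25 (adjusted p = 0.00767).

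Of the abundant members, *Cpr67B* and *Cpr72Ec* were not called in ND-75KDweak against control. *Cpr67B* was at 96.9, 126.6, 141.5 and 112.0 CPM in control, 98.8, 109, 118 and 112 CPM in ND-75KDweak, and 128.5, 117, 114 and 108 CPM in ND-75KDstrong. Its 3 ranges overlapped, and its log2 fold changes were -0.10 ± 0.14, -0.04 ± 0.15 and 0.09 ± 0.10. *Cpr72Ec*, of the corneal lens, was at 129.7, 142.0, 407.5 and 306.9 CPM in control, 102, 153, 98.3 and 96.9 CPM in ND-75KDweak, and 224.5, 271, 349 and 202 CPM in ND-75KDstrong. The controls overlapped with both knockdowns, and only the difference between the knockdowns was called (1.21 ± 0.21, adjusted p = 0.00499, edgeR), with -1.10 ± 0.34 for ND-75KDweak against control (adjusted p = 0.0911). *Cpr66D*, also a lens protein gene, ranged from 1.58 to 16.8 CPM with overlap between all genotypes and was not called.

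**Figure D4:**
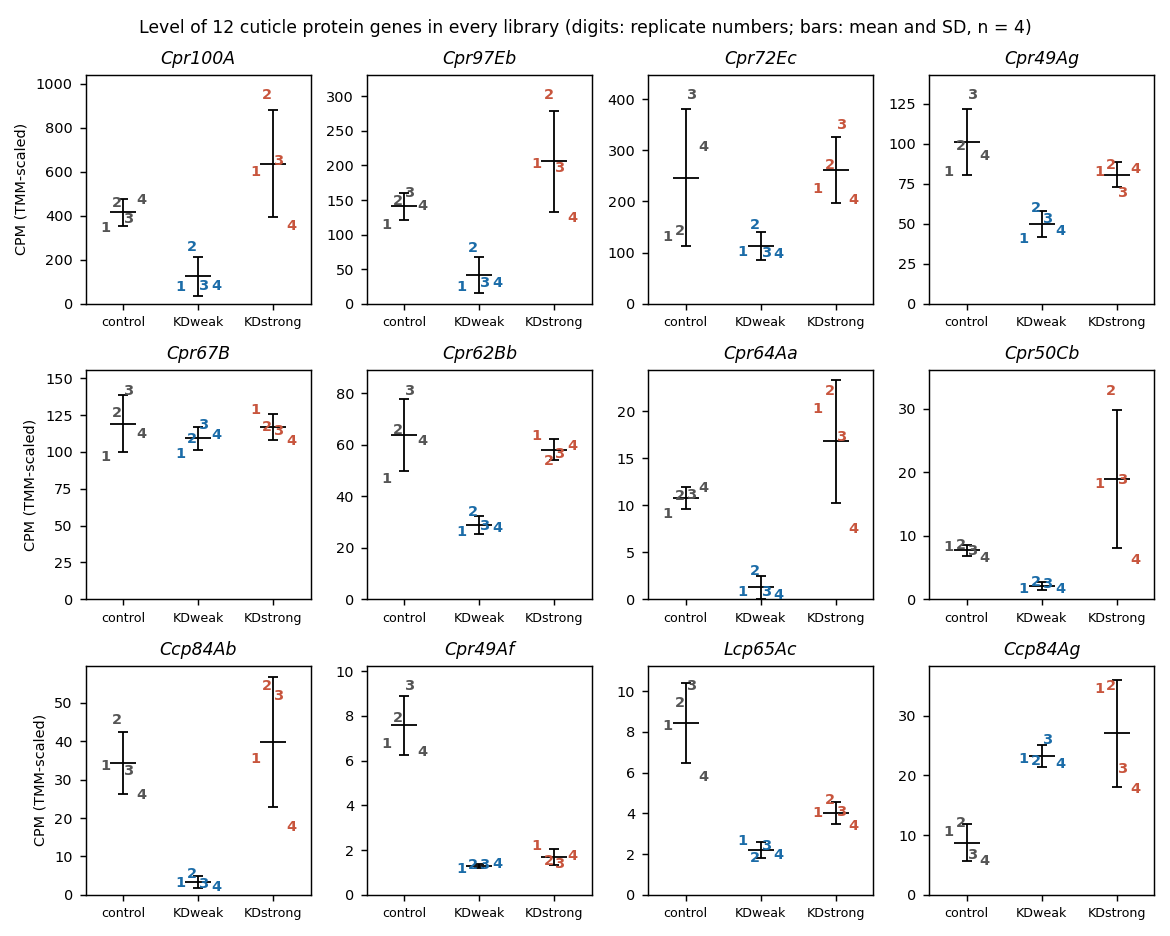
CPM of 12 cuticle protein genes in every library of the 3 genotypes; digits are replicate numbers and bars are the mean and SD of 4 libraries. *Cpr67B* overlapped in all genotypes, *Cpr49Af* was below control in all 8 knockdown libraries, *Ccp84Ag* was above control in all 8, and ND-75KDweak was below both other genotypes in *Cpr49Ag*, *Cpr62Bb*, *Cpr64Aa*, *Cpr50Cb*, *Ccp84Ab* and *Lcp65Ac*.

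A small number of members were lower in ND-75KDstrong than in ND-75KDweak. *TwdlG* was at 8.79, 6.71, 7.45 and 7.95 CPM in control, 9.88, 9.22, 9.61 and 9.82 CPM in ND-75KDweak, and 5.77, 5.15, 6.13 and 6.01 CPM in ND-75KDstrong. Its 3 ranges did not overlap, with ND-75KDstrong lowest, but only the difference between the knockdowns was called (-0.75 ± 0.12, adjusted p = 0.00241, edgeR), with adjusted p = 0.188 and 0.276 for the comparisons with control. *Cpr92A* was at 0.486, 0.243, 0.317 and 0.658 CPM in control, 0.592, 0.461, 0.376 and 0.627 CPM in ND-75KDweak, and 0.0295, 0.129, 0.0814 and 0.0395 CPM in ND-75KDstrong. It was called lower in ND-75KDstrong than in ND-75KDweak (-2.85 ± 0.47, adjusted p = 0.00322). *Cpr92A* passed the count filter there only through ND-75KDweak, where it is high, with 52 reads against 8 in ND-75KDstrong. Its fold change depends on how near-zero counts are treated and is no bound. It fell short of the count filter in the comparison of ND-75KDstrong with control. There DESeq2 and the fit of all 12 libraries called it lower, from the same 8 reads and so not as separate support.

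Tweedle, *Lcp* and *Edg* genes were mostly near the limit of detection. Only 5 of 18 Tweedle genes and 3 of 11 *Lcp* genes were tested. The 18 Tweedle genes summed to 25.5 to 32.1 CPM in control, 22.4 to 25.4 CPM in ND-75KDweak and 21.5 to 37.6 CPM in ND-75KDstrong. The 11 *Lcp* genes summed to 9.36 to 13.9 CPM in control, 4.25 to 5.87 CPM in ND-75KDweak and 6.72 to 7.54 CPM in ND-75KDstrong, 3 separate ranges in which *Lcp65Ac* has a large part. *Edg91* was higher in ND-75KDstrong than in ND-75KDweak (1.17 ± 0.31, adjusted p = 0.0349, edgeR). This call was lost with all 12 libraries in 1 fit, without ND-75KDweak replicate 3 or 4 and without any single ND-75KDstrong library. *Pcp*, a pupal cuticle protein gene, lies within *Gart*, which was at a mean of 759 CPM, so its reads are uncertain, and it was not called.

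By place, 19 of 34 clustered genes tested and 2 of 15 single genes tested were lower in ND-75KDweak, and 20 of 36 clustered and 5 of 16 single genes were higher in ND-75KDstrong than in ND-75KDweak. By arm, 8 of 14 tested genes on 3R, 8 of 16 on 3L, 4 of 15 on 2R, 1 of 2 on X and 0 of 2 on 2L were lower in ND-75KDweak. Over all features, 3.98% were lower in ND-75KDweak and 8.18% were higher in ND-75KDstrong than in ND-75KDweak. Neighbours share sequence and position and are not independent, and the split was not tested.

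Several libraries departed from their group in the cuticle protein genes. ND-75KDweak replicate 2 had the highest CPM of its group in 25 of the 52 tested members (48.1%), against 32.5% of all features. ND-75KDstrong replicate 4 had the lowest in 30 of 52 (57.7%), against 34.9% of all features. Relative to the other 3 libraries of the group, the median log2 difference over the members was 0.23 in the former and -0.49 in the latter, against -0.04 and 0.06 over all features. Control replicate 1 was the lowest of its group in 24 members (46.2%, against 28.8% of all features), with a median log2 difference of -0.28 from the other controls. ND-75KDstrong replicate 2 was the highest of its group in 23 (44.2% against 20.4%), and ND-75KDweak replicate 1 the lowest in 20 (38.5% against 21.9%). Without control replicate 3 and ND-75KDweak replicate 2, 27 of 51 members tested were lower in ND-75KDweak and 3 were higher, where 8.64% of all features were called lower and 5.99% higher. ND-75KDweak replicate 2 was left out with its high values in these members known, which favours calls of lower members. The larger count is therefore no separate support.

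Genes outside the naming rule that serve cuticle formation included many that were lower in ND-75KDweak. Of 26 tested genes of chitin synthesis and turnover, 12 were lower in ND-75KDweak and 14 were not called, and 17 were higher in ND-75KDstrong than in ND-75KDweak. The shares were 46.2% lower and 65.4% higher, against 3.98% and 8.18% of all features. Against control, ND-75KDstrong gave 0 calls among the 26 with edgeR and 0 among the 28 that DESeq2 tested. With edgeR, 6 of the 26 were higher before adjustment (p under 0.05). *kkv*, the chitin synthase of the epidermis, was at 68.5 to 90.7 CPM in control, 9.61 to 41.6 CPM in ND-75KDweak and 59.5 to 173 CPM in ND-75KDstrong (-2.16 ± 0.44 in ND-75KDweak, adjusted p = 0.0137). *Cht5*, a chitinase of the moult, was at 63.1 to 113.5 CPM in control, 11.8 to 12.9 CPM in ND-75KDweak and 44.4 to 401 CPM in ND-75KDstrong (-2.67 ± 0.19, adjusted p = 4.0e-05). *reb* (-2.09 ± 0.40), a regulator of chitin deposition, and *Cda4* (-1.31 ± 0.24), a chitin deacetylase, were also lower.

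Of 18 tested proteins of the cuticle and apical matrix outside the naming rule, 7 were lower in ND-75KDweak and 1 was higher. The shares were 38.9% and 5.56%, against 3.98% and 2.56% of all features. *Vajk1*, *Vajk2* and *Vajk3* had log2 fold changes of -2.69, -2.38 and -2.32, whereas *Vajk4* was higher in ND-75KDweak (0.90 ± 0.17, adjusted p = 0.00881) and in ND-75KDstrong (1.43 ± 0.21, adjusted p = 0.00351, edgeR). *resilin*, the elastic cuticle protein, was lower in ND-75KDweak (-1.37 ± 0.29, adjusted p = 0.0151), and so was *Crys*, a lens protein with the cuticle domain (-1.31 ± 0.34, adjusted p = 0.0417). Of 23 tested genes of tanning and sclerotization, 4 were lower in ND-75KDweak (17.4%, against 3.98% of all features) and 19 were not called. The 4 were *AANATL2*, an arylalkylamine N-acetyltransferase-like gene (-1.95 ± 0.29), *yellow-d2* (-2.51 ± 0.50), *Pu*, which encodes GTP cyclohydrolase I (-1.02 ± 0.20), and *stw*, which encodes a laccase (-0.82 ± 0.21). *y*, which is needed for black pigment, was the one gene of this list called in ND-75KDstrong against control (1.79 ± 0.40, adjusted p = 0.0439). Of 22 tested genes of moulting hormones and the ecdysone response, *Hr38*, a nuclear receptor, was higher in ND-75KDweak (1.24 ± 0.31, adjusted p = 0.0373) and 21 were not called. *Eh*, the eclosion hormone gene, was higher in ND-75KDstrong than in control (1.76 ± 0.37, adjusted p = 0.034), and *CCAP*, *Eip74EF* and *Eh* were higher in ND-75KDstrong than in ND-75KDweak (1.39, 1.03 and 0.65). The share of this list called higher was 4.55% in ND-75KDweak, 4.55% in ND-75KDstrong and 13.6% between the knockdowns. Over all features these shares were 2.56%, 1.78% and 8.18%, so such small counts lie near them.

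Outside the naming rule, 10 genes carried the same domain annotations under other names. Of these, 8 were tested in the comparisons with control, 5 lower and 2 higher in ND-75KDweak. Genes of the lists above that carry these domains, such as *Crys*, were not taken out. The counts therefore overlap with those lists and are not independent of them. *l(3)mbn*, next to the 65A cluster on 3L, was at 2.96, 3.96, 4.48 and 2.60 CPM in control, at no more than 0.219 CPM in the ND-75KDweak libraries and at 2.25 to 19.1 CPM in ND-75KDstrong (-4.95 ± 0.50 in ND-75KDweak, adjusted p = 2.2e-04, edgeR). *CG34461* and *CG34462*, neighbours on 3L, were lower in ND-75KDweak (-3.07 ± 0.41 and -4.49 ± 0.71), and *CG34462* also in ND-75KDstrong (-4.73 ± 0.80, adjusted p = 0.00869), where 3 of 4 libraries had no read of it. *CG13670*, which lies close to them, was higher in ND-75KDweak (1.35 ± 0.24, adjusted p = 0.00641). The other gene that was higher in ND-75KDweak, *lectin-28C* (0.82 ± 0.16, adjusted p = 0.00924), was lower in ND-75KDstrong than in control (-1.21 ± 0.27, adjusted p = 0.0471). It overlaps *TwdlE*, and its name does not go with the Tweedle domain that its annotation gives.

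Markers of trachea and muscle included genes lower in ND-75KDweak and fat body markers went in both directions. Of 11 hemocyte markers 2 were higher and 9 were not called. Over all features, 3.98% were called lower and 2.56% higher in ND-75KDweak. Between the knockdowns, 8.18% were called higher and 3.09% lower in ND-75KDstrong. The part of these cell types in the result was not tested. *Fbp1*, which encodes the receptor that takes up larval storage proteins into fat body, was at 5.93 to 9.22 CPM in control, 0.25 to 0.801 CPM in ND-75KDweak and 8.46 to 49.4 CPM in ND-75KDstrong. It was lower in ND-75KDweak (-3.75 ± 0.32, adjusted p = 1.0e-04, edgeR) and higher in ND-75KDstrong (1.92 ± 0.43, adjusted p = 0.0453). *Fbp2*, another fat body gene, had no read in 2 of the ND-75KDweak libraries. *Fbp1* and *Fbp2* do not stand for their list. The 11 fat body markers were not of 1 direction, with 3 lower and 4 higher in ND-75KDweak and a median log2 fold change of 0.61. Their summed CPM was 35070 to 41270 in control, 49670 to 71510 in ND-75KDweak and 28570 to 71180 in ND-75KDstrong. Of 8 trachea markers, which share *Gasp*, *serp*, *verm* and *pio* with the lists above, 2 were lower in ND-75KDweak and 4 were higher in ND-75KDstrong than in ND-75KDweak. The hemocyte markers that were higher in ND-75KDweak were the prophenoloxidase genes *PPO1* (1.35 ± 0.19) and *PPO2* (1.02 ± 0.21). Between the knockdowns, 4 of the 11 hemocyte markers (36.4%) were lower in ND-75KDstrong. The 11 summed to 1727 to 2083 CPM in control, 1577 to 1990 CPM in ND-75KDweak and 1431 to 1666 CPM in ND-75KDstrong. Muscle markers summed to 10020 to 14650 CPM in control, 6027 to 10480 CPM in ND-75KDweak and 8888 to 12770 CPM in ND-75KDstrong, with 1 of 10 tested called lower in ND-75KDweak. Before adjustment 5 of the 10 were lower and 1 was higher in ND-75KDweak (edgeR, p under 0.05). Their median log2 fold change was -0.57, and DESeq2 called 4 of 11 lower. Between the knockdowns, 4 of the 10 (40.0%) were called higher in ND-75KDstrong and 0 lower. Of the 16 neuron and 10 glia markers, 0 were called in any comparison by edgeR or DESeq2, and 2 glia markers were lower in ND-75KDstrong than in control before adjustment (p under 0.05).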

How the data were processed

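RNA was sequenced from 12 pools of adult heads, and 3 deposited tables, 1 per pairwise comparison, were used. According to the submitters' processing notes, the authors trimmed reads with fastp, aligned them with HISAT2 and made whole-number counts per feature with featureCounts; their versions and settings, and the build, are not stated in the sources read here. The deposited FPKM values were computed by the authors from these counts and gene length. Columns of the authors' DESeq2 comparisons and 24 columns of normalized counts were not used. Where 2 tables hold a library, its counts agreed for every feature (0 differences).

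For each comparison its 8 libraries were fitted with edgeR 4.0.16 in R 4.3.3, after filterByExpr (minimum count 10, minimum total count 15) and TMM scaling, by the quasi-likelihood test with Benjamini-Hochberg adjustment over all features and a threshold of 0.05, as the study's pairwise design has it. The filter left 10415, 10522 and 10638 features. The standard error is the absolute log2 fold change over the square root of F. CPM used TMM factors over all 12 libraries. The tests were first run on simulated counts with known changes. Alternatives were DESeq2 1.42.0, upper-quartile scaling, no filter, a replicate block, all 12 libraries in 1 fit, protein-coding genes only and leaving out libraries. Python 3.11.15 with pandas 2.3.3, numpy 2.4.6 and matplotlib 3.10.9 made summaries and plots.

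Values in every library are given for members with the 6 smallest p per direction and comparison, the 5 with the highest FPKM, and those called in opposite directions or in all 3 comparisons. Up to 4 called genes per direction were taken from each other list. The members, lists, alternatives and naming rule were chosen with earlier results of these data known. Planned descriptions of protein and promoter sequences were not made.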

Additional observations from a re-analysis of the deposited data

Results flagged for a closer look

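Among 57 groups of 4 values scanned (18 members and their sum in 3 genotypes), 7 had 1 library far from the other 3 by Dixon's test, 12.3% where chance gives about 1 in 20. In 5 of the 7 the library was ND-75KDweak replicate 2, the highest of its group. Its values were 259 CPM for *Cpr100A*, 80.8 CPM for *Cpr97Eb*, 3.02 CPM for *Cpr64Aa* and 153 CPM for *Cpr72Ec*, and 1187 CPM for the sum of all cuticle protein genes. The other 2 were *Cpr49Ac* in control replicate 2, the highest of the controls at 0.809 CPM, and *Cpr49Af* in ND-75KDweak replicate 1, the lowest of its group at 1.14 CPM. The sum holds the same genes, so these results are not independent of each other. What sets ND-75KDweak replicate 2 apart was not tested.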

How the results depend on the processing

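In ND-75KDstrong against control, the count of members called higher was 1 of 49 as reported and 5 of 72 with DESeq2. It was 4 of 99 with no filter on low counts and 2 of 53 with all 12 libraries in 1 fit, and it ran from 0 to 10 when libraries were left out. The count called lower was 2 as reported, 3 with DESeq2 and 3 with all 12 libraries in 1 fit. When libraries were left out it ran from 1 to 2, and the median log2 fold change from 0.134 to 0.423. In ND-75KDweak against control the median was -0.195 with DESeq2 and -0.207 with no filter, both over more members of low count, and it ran from -0.796 to -0.459 when libraries were left out, while the count called lower ran from 14 to 27. Between the knockdowns the median was 0.421 with DESeq2 and 0.432 with no filter. Deviations from the group means had correlations of -0.434 to 0.138 between same-numbered libraries. Such correlations cannot show whether the replicate numbers pair the samples, and the labels do not say. With the replicate block the counts were 2 higher and 22 lower in ND-75KDweak, 1 higher and 1 lower in ND-75KDstrong, and 25 higher and 3 lower between the knockdowns. The 32 calls of members given with their values had 480 combinations with an alternative, of which 461 kept the call and direction, 14 lost the call, 0 reversed and 5 were not tested because the gene fell below the count filter (*Cpr49Ac* 4 times and *Ccp84Ac* 1 time). The 14 concern *Ccp84Ag* and *Lcp65Ac* in ND-75KDstrong, *Cpr100A* in ND-75KDweak and *Lcp65Ac* between the knockdowns. With the replicate block the call for *Lcp65Ac* in ND-75KDstrong was among those lost. Over all 54 calls of members, 39 were kept under every alternative and 15 were not, 8 of them in ND-75KDweak, 2 in ND-75KDstrong and 5 between the knockdowns. Conversely, DESeq2 also called *Cpr72Ec* lower in ND-75KDweak, *Cpr47Ea*, *Cpr49Ac*, *Cpr50Cb* and *Cpr5C* higher and *Cpr92A* lower in ND-75KDstrong, and *Cpr5C* and *TwdlY* higher and *TwdlC* lower between the knockdowns. *Cpr5C*, *TwdlY* and *TwdlC* are among the 50 members that the count filter kept from the reported tests, where depth limits what can be compared.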
